A study of Mus musculus with 16 samples.

Results

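Regulatory T cells (Tregs) that made Foxp3 from the knock-in allele Foxp3gfp (KI) were compared with Tregs that made it from the unmodified gene and are labelled wild type (WT). The 8 arrays compared were all those described as Foxp3gfp Treg or wild type Treg, 4 of each, out of 16 in the series. The other 8 arrays held conventional CD4 T cells (Tconv) of both genotypes and served to ask whether a difference was the same in cells that depend little on Foxp3. The series title concerns what a changed Foxp3 does to gene control and Treg function.

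All cells came from the spleens of untreated NOD/LtJ mice, a strain prone to autoimmune diabetes, at 6 weeks of age. WT mice carried Tg(Foxp3-EGFP/cre)1aJbs, a transgene that makes EGFP joined to Cre under Foxp3 control beside an intact Foxp3 gene. KI mice carried Foxp3tm2Ayr, in which GFP coding sequence sits in Foxp3 itself, so that Foxp3 protein is made as a fusion with GFP. The labels do not place the transgene in KI mice, so the effect of the fusion and that of carrying the transgene cannot be told apart. The sorting protocol in the labels names CD3+CD4+GFP- cells for every array, and the gate that yielded the Tregs is therefore unclear. The labels do not say that the arrays of a group came from different mice, so the p-values measure the spread between these samples, which may be technical.

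Foxp3 is the transcription factor that defines Tregs, the CD4 T cells that hold back immune responses. It acts in complexes with other transcription factors and with chromatin enzymes, and the N-terminal part that carries GFP in the fusion takes part in such contacts. Resting Tregs circulate through lymphoid organs, while effector Tregs, whose differentiation needs IRF4, BATF and Blimp-1, divide, enter tissues and carry more suppressive and costimulatory molecules.

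Values are log2 expression, so a difference of 1 is a doubling, and values under about 5 lie near the background of the arrays. Of the 8139 genes tested, 231 (2.84%) passed at an adjusted p under 0.05, by limma with the Benjamini-Hochberg method over all genes tested. In KI Tregs 162 genes (1.99%) were higher and 69 (0.848%) lower, and the median difference over all genes was 0.04. In whole sorted populations, a change in the share of cells in a state and a change in RNA per cell cannot be told apart. Of the 231 genes that passed, 114 (1.4% of all genes tested) differed by at least 1.5-fold. The 4 KI and 4 WT arrays did not overlap in 210 of these 231 (2.58% of all genes tested). Over all genes tested, passed or not, the arrays did not overlap in 661 (8.12%). The share of higher genes among those that passed was 70.1%, and it was 56.0% when each array was shifted to one median and 54.6% after a further quantile normalization.

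**Figure D1:**
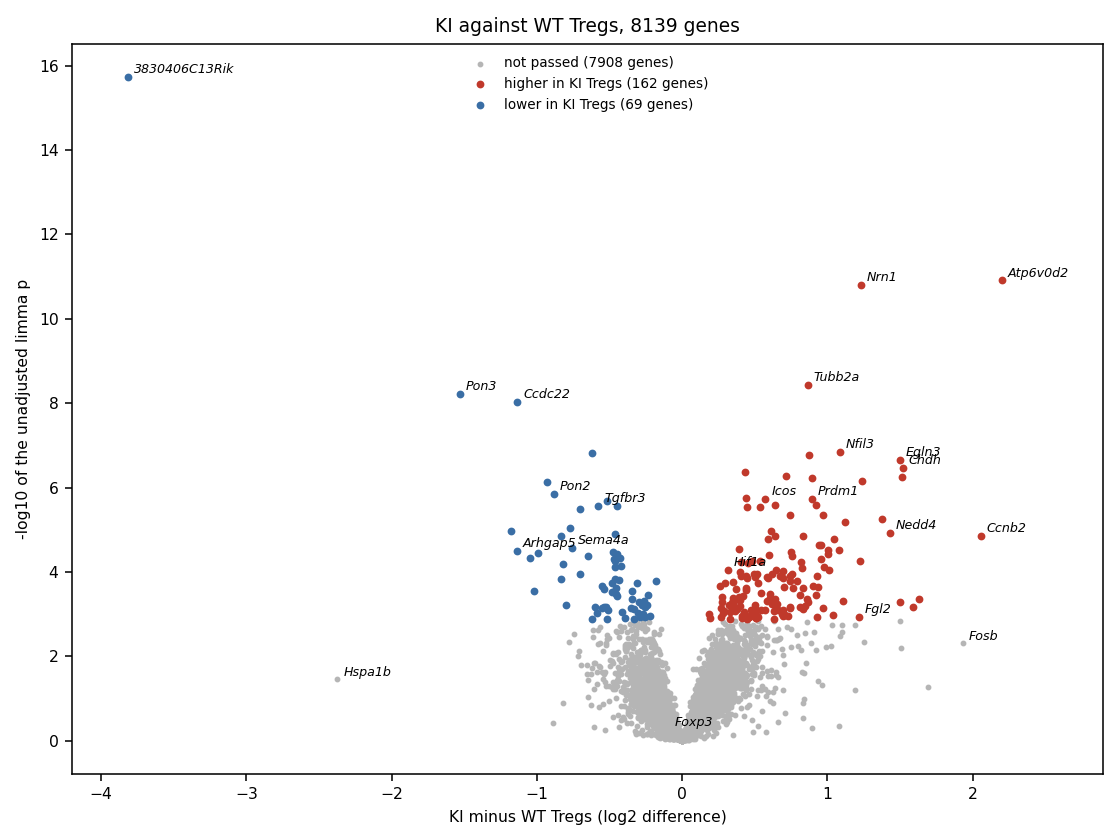
KI minus WT Treg log2 difference (horizontal) against −log10 of the unadjusted limma p (vertical) for each of the 8139 genes tested. Red points are the 162 genes that passed and were higher in KI Tregs and blue points the 69 that were lower. 3830406C13Rik (-3.82) lies far to the left of all others, Atp6v0d2 (2.21) has the largest rise, and Foxp3 (-0.09) lies near 0.

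The title numbers of the arrays fall into 3 runs, and the labels do not say what a number stands for. WT Tregs 1 to 3 are numbered 4 to 6, KI Tregs 1 to 3 are numbered 13, 15 and 19, and WT Treg 4 (24) and KI Treg 4 (26) share the only run that holds both genotypes. Across genes KI Treg 4 correlated more closely with WT Treg 4 (r = 0.990) than with any KI array (0.978 to 0.987), while the arrays within a genotype correlated at 0.976 to 0.991. The value within that run, KI Treg 4 minus WT Treg 4, is therefore given as the run value, with no test, beside the named genes that passed in Tregs. Without KI Treg 4 571 genes (7.02%) passed, and without KI Treg 1 only 101. With the 3 runs as a block, where the genotype difference averaged over both cell types rests on the 4 arrays numbered 24 to 27, 29 genes (0.356%) passed, of which 27 also passed without the block. Of the genes named below whose KI minus WT Treg difference passed, 21 also passed with this block, each said where the gene is described, and all others lost their call with it. With only that run set against all other arrays as a block, 339 (4.17%) passed.

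Foxp3 itself, which marks the cells as Tregs, did not pass. Foxp3 read 9.74, 10.16, 9.81 and 9.72 on WT Treg arrays 1 to 4 and 9.92, 10.05, 9.69 and 9.39 on KI Treg arrays 1 to 4. The arrays of the 2 genotypes overlapped, and the difference was -0.09 (SE 0.154, adjusted p = 0.798), with a run value of -0.32. The probe set reports Foxp3 transcript and does not test for the fusion. None of 9 genes that define CD4 T cells passed, among them Cd3e (8.84 in both genotypes), a chain of the T cell receptor complex. Of 23 tested Treg identity genes 3 rose and 0 fell, beside 1.99% and 0.848% of all genes. Their median was 0.15 and their run median 0.07. Ikzf2, which encodes the Treg factor Helios (-0.07), Ikzf4, which encodes its relative Eos (-0.45, adjusted p = 0.0721), and the IL-2 receptor gene Il2ra (0.47, adjusted p = 0.0667) did not pass.

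The largest rise was in Atp6v0d2, which encodes a d2 subunit of the membrane part of the vacuolar proton pump, best known from osteoclasts. Atp6v0d2 read 3.59, 3.80, 4.05 and 3.81 on the WT Treg arrays and 6.04, 6.19, 5.95 and 5.89 on the KI Treg arrays. Every WT array lay near background and every KI array above it. The mean over the 16 arrays was 4.17, so the gene was tested only because of its level on the 4 KI Treg arrays. Its p-value is therefore not independent of that selection. The rise was 4.61-fold, which the WT background makes an understatement (log2 difference 2.21, SE 0.143, adjusted p = 4.19e-08), and the run value was 2.08. A second probe set of the gene, too dim to be tested, differed by 1.86.

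Egln3 encodes a prolyl hydroxylase that marks HIF-1 alpha for breakdown and is itself induced by HIF. Egln3 read 5.89, 5.47, 5.47 and 4.99 on the WT arrays and 6.90, 7.26, 6.65 and 7.02 on the KI arrays. The groups did not overlap, and WT Treg 4 was the lowest WT array. The rise was 2.83-fold (1.5, SE 0.184, adjusted p = 0.000183), with a run value of 2.03. Its second, dimmer probe set differed by 0.59.

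Nfil3 and Prdm1 encode transcription factors of effector T cells, Prdm1 the repressor Blimp-1. Nfil3 read 6.02, 6.17, 6.16 and 5.78 on the WT arrays and 7.32, 7.15, 6.90 and 7.11 on the KI arrays. Prdm1 read 7.01, 7.15, 7.20 and 7.31 on the WT arrays and 8.07, 8.01, 7.94 and 8.22 on the KI arrays. In both genes the lowest KI array stood above the highest WT array, and KI Treg 4, which resembled WT Treg 4 over all genes, was the highest KI array for Prdm1. Nfil3 rose 2.12-fold (1.09, SE 0.129, adjusted p = 0.000153) with a run value of 1.33, and Prdm1 rose 1.86-fold (0.89, SE 0.128, adjusted p = 0.000729) with a run value of 0.91. All 4 of these genes also passed with the 3 runs as a block, with adjusted p of 0.000215 for Atp6v0d2, 0.00134 for Egln3, 0.0130 for Nfil3 and 0.0355 for Prdm1, and without any single array.

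**Figure D2:**
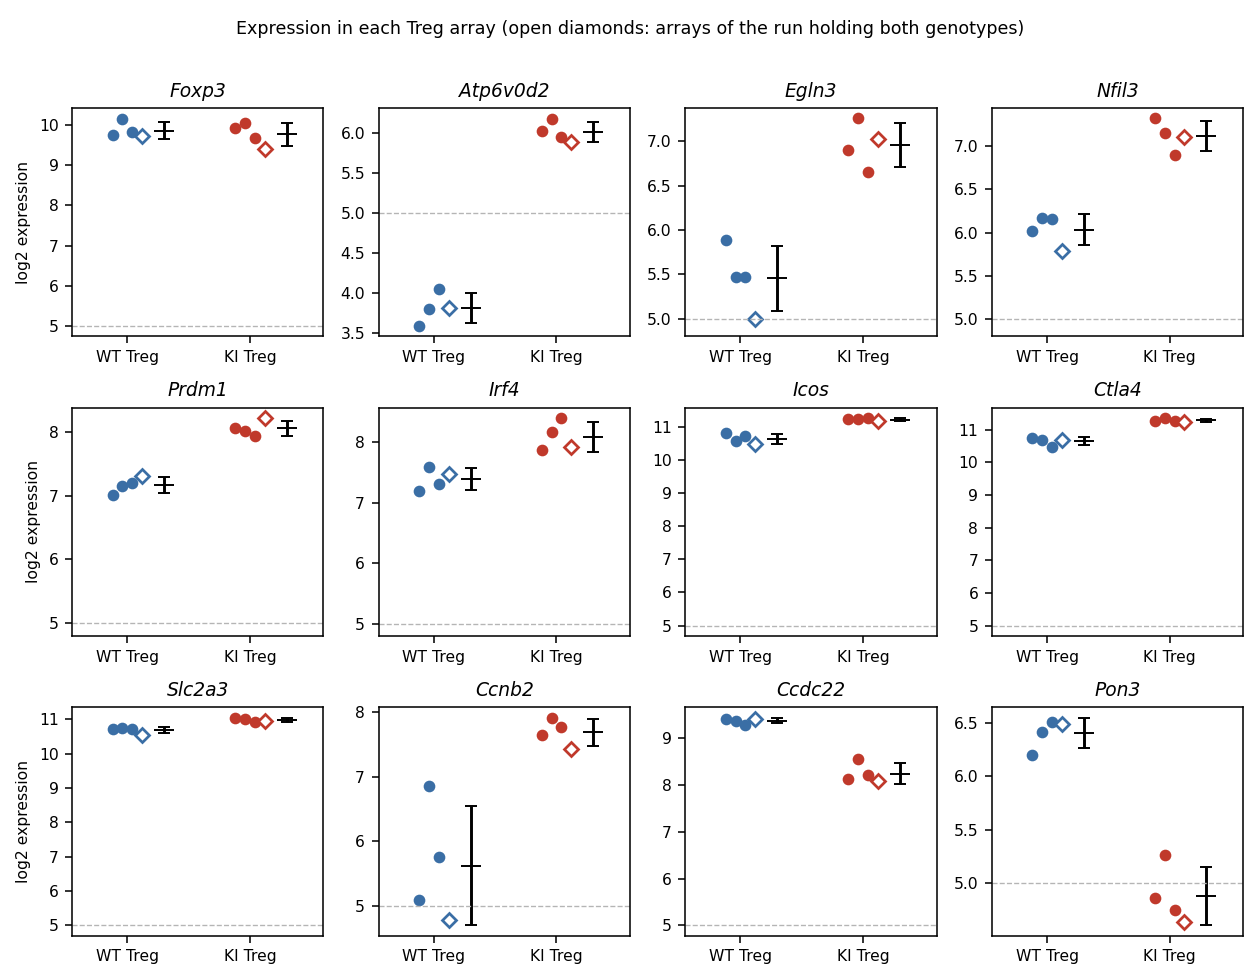
Log2 expression of 12 genes on each WT (blue) and KI (red) Treg array; open diamonds are the arrays of the run that holds both genotypes, black bars are the mean and SD of 4 arrays, and the dashed line marks a log2 value of 5. Vertical axes differ between genes and do not start at 0; Foxp3 overlaps between genotypes, while Atp6v0d2 lies at 3.59 to 4.05 in WT and 5.89 to 6.19 in KI Tregs.

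Some regulators of effector Tregs rose in KI Tregs. Of 15 tested members of a list of such regulators, 4 rose, 0 fell and 11 did not pass, beside 1.99% of all genes for rises, and the median was 0.40 beside 0.04 for all genes. Besides Nfil3 and Prdm1 these were Batf and Irf4, whose products bind DNA together in effector Tregs. Nfil3 and Prdm1 had been picked beforehand as markers of this comparison. This list and those below were chosen with earlier results of these data known, so such counts are descriptions only. Batf read 8.46, 8.53, 8.59 and 8.46 on the WT arrays and 9.10, 9.27, 9.00 and 8.72 on the KI arrays. Irf4 read 7.20, 7.60, 7.31 and 7.47 on the WT arrays and 7.87, 8.17, 8.40 and 7.92 on the KI arrays. Neither gene overlapped, and for Batf the KI array of the shared run was the lowest KI array.

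Batf rose 1.43-fold (0.52, SE 0.104, adjusted p = 0.0109) and Irf4 1.62-fold (0.70, SE 0.180, adjusted p = 0.0432), with run values of 0.26 and 0.45. The call of Irf4 ended without any of 6 single arrays, WT Treg 1, 3 and 4 and KI Treg 1 to 3, with an adjusted p of 0.0700 to 0.146. With the 3 runs as a block neither passed (Batf 0.23, adjusted p = 0.805, and Irf4 0.35, adjusted p = 0.862), which left 2 of the 15, Nfil3 and Prdm1. The aryl hydrocarbon receptor gene Ahr (0.59, adjusted p = 0.0825), Maf (0.40) and Myb (0.42) did not pass, and the median of the list was 0.23 within the shared run, beside -0.04 for all genes, and 0.22 with the 3 runs as a block.

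Surface and secreted molecules of effector Tregs were the list with most members that passed. Of 20 tested, 8 rose and 1 fell, beside 1.99% of all genes for rises and 0.848% for falls, with a median of 0.50 and a run median of 0.49. Icos, a costimulatory receptor on which effector Tregs depend, read 10.80, 10.57, 10.72 and 10.47 on the WT arrays and 11.22, 11.22, 11.26 and 11.16 on the KI arrays. The KI arrays lay close together, all above the WT arrays. Icos rose 1.49-fold (0.57, SE 0.0822, adjusted p = 0.000729), and its run value was 0.69. Lgals1, which encodes the secreted lectin galectin-1, read 10.69, 10.92, 10.89 and 10.52 on the WT arrays and 11.59, 11.70, 11.41 and 11.29 on the KI arrays. It rose 1.67-fold (0.74, SE 0.114, adjusted p = 0.00119), with a run value of 0.78. With the 3 runs as a block Icos (adjusted p = 0.0338) and Lgals1 (0.0130) passed and the other 7 did not, Il18r1 among them (0.0754).

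Other members rose by similar amounts. The annexin gene Anxa2 rose by 0.82 (SE 0.156, adjusted p = 0.00678, run value 0.64) and the TNF receptor 2 gene Tnfrsf1b by 0.49 (SE 0.0993, adjusted p = 0.0109, run value 0.43). Gzmb, the gene of the killing protease granzyme B, averaged 7.44 ± 0.30 in WT and 8.19 ± 0.17 in KI Tregs (SD, n = 4, adjusted p = 0.0110, run value 0.66). Itgae, the CD103 integrin chain that holds T cells in epithelia, averaged 7.45 ± 0.33 and 8.21 ± 0.27 (adjusted p = 0.0171, run value 0.46). Il18r1, which encodes a chain of the IL-18 receptor, was the member that fell. Il18r1 read 10.10, 10.10, 10.44 and 10.58 on the WT arrays and 9.42, 9.40, 9.41 and 9.67 on the KI arrays, without overlap, a fall of 1.78-fold (-0.83, SE 0.140, adjusted p = 0.00273, run value -0.91). The call of Gzmb ended without KI Treg 1 (adjusted p = 0.0575), and that of Itgae without WT Treg 1 (0.0759) or KI Treg 3 (0.0584).

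Suppressive molecules overlapped with that list. The median of the 13 tested was 0.18 and the run median 0.43. Of these 13, 4 rose and 0 fell, beside 1.99% and 0.848% of all genes. Gzmb, Ctla4 and Fgl2 belong to both lists, and Pdcd1lg2, which encodes the PD-1 ligand PD-L2, was the fourth (run value 0.43). Ctla4, the inhibitory receptor through which Tregs strip costimulatory ligands from antigen-presenting cells, read 10.73, 10.69, 10.47 and 10.68 on the WT arrays and 11.27, 11.35, 11.27 and 11.23 on the KI arrays. Fgl2, a secreted suppressor of dendritic cells, averaged 6.42 ± 0.43 in WT and 7.64 ± 0.10 in KI Tregs. Neither gene overlapped. Ctla4 rose 1.55-fold (0.64, SE 0.158, adjusted p = 0.0358, run value 0.56) and Fgl2 2.33-fold (1.22, SE 0.315, adjusted p = 0.0432, run value 0.75).

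With the 3 runs as a block the differences were 0.12 for Ctla4 (adjusted p = 0.949), 0.74 for Fgl2 (0.564) and 0.32 for Pdcd1lg2 (0.857), and no member of this list passed. The call of Ctla4 ended without any single array other than KI Treg 4 (adjusted p 0.0581 to 0.123), that of Fgl2 without any other than WT Treg 4 (0.0507 to 0.154), and that of Pdcd1lg2 (0.65) without WT Treg 1, 3 or 4 or KI Treg 1 or 2 (0.0573 to 0.132). A second probe set of Fgl2 passed where every probe set was tested (1.65, adjusted p = 0.00443). The opioid precursor gene Penk (-0.71, adjusted p = 0.139) and Entpd1, which encodes the ATP-degrading enzyme CD39 (0.53, adjusted p = 0.123), did not pass.

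**Figure D3:**
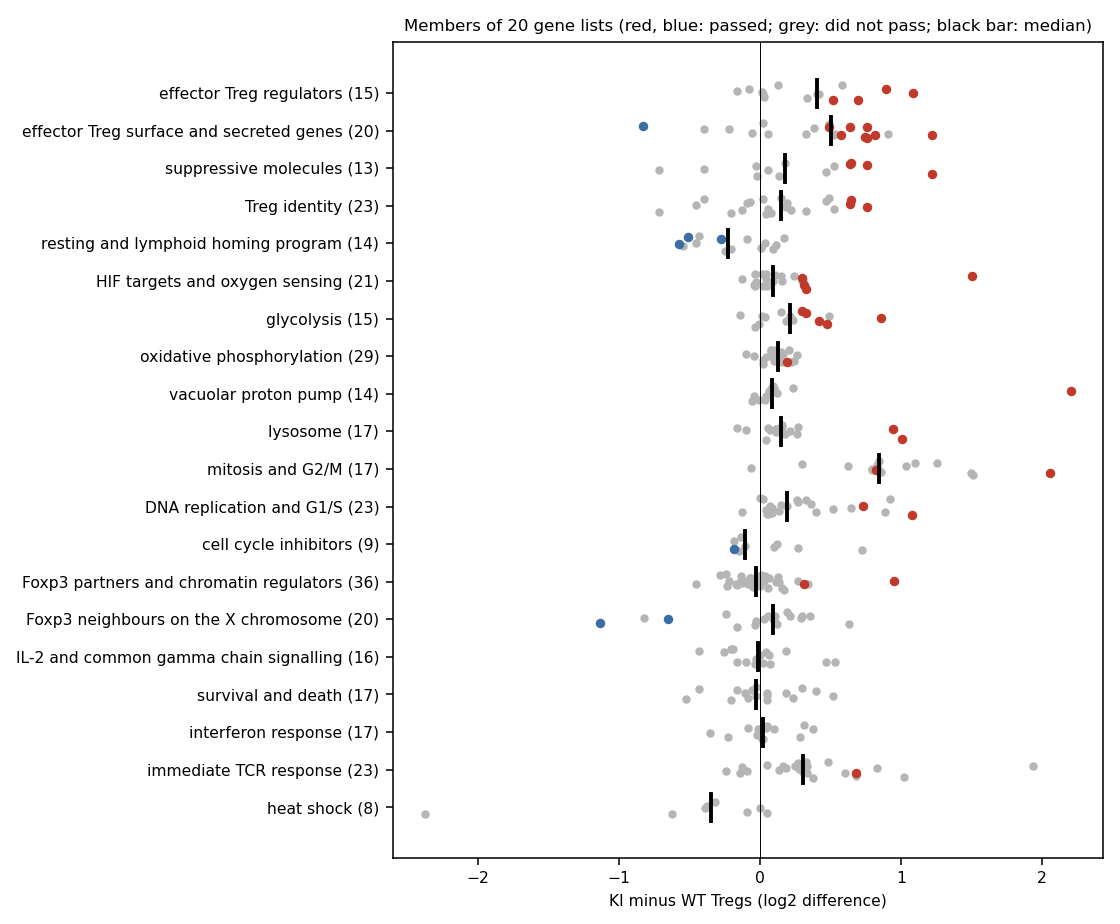
KI minus WT Treg log2 difference (horizontal) of the tested members of 20 gene lists (vertical, number of members in brackets). Red and blue points passed, grey points did not, and black bars are list medians; 8 of 20 effector surface and secreted genes are red, and the mitosis list has the largest median, 0.84, with 2 of 17 genes red.

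A few genes of the resting and lymphoid homing program fell. Of 14 tested 3 fell, 0 rose and 11 did not pass, beside 0.848% of all genes for falls, and 5 had a positive difference. The median was -0.23 and the run median -0.08, beside -0.04 for all genes, and with the 3 runs as a block none passed. The 3 were Tgfbr3, the co-receptor betaglycan that presents TGF-beta, Bach2, a repressor of effector differentiation, and Pde3b, which encodes a cyclic AMP phosphodiesterase. Tgfbr3 read 8.73, 8.56, 8.47 and 8.88 on the WT arrays and 7.94, 8.13, 8.01 and 8.26 on the KI arrays. These arrays did not overlap, and the fall was 1.49-fold (-0.58, SE 0.0849, adjusted p = 0.000852, run value -0.62).

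Bach2 fell 1.21-fold (-0.28, SE 0.0666, adjusted p = 0.0310), and its run value was smaller, at -0.11, as was its difference with the 3 runs as a block (-0.14). Other probe sets of Bach2 differed by -0.14 (adjusted p = 0.369) and -0.19 (0.527) and did not pass where every probe set was tested. Pde3b fell 1.42-fold (-0.51, SE 0.126, adjusted p = 0.0358, run value -0.59), and its arrays overlapped, KI Treg 2 (6.40) lying above WT Treg 2 (6.25). The call of Bach2 ended without WT Treg 1, 2 or 4 or KI Treg 1 or 2 (adjusted p 0.0616 to 0.127), and that of Pde3b without WT Treg 1, 3 or 4 or KI Treg 1 or 3 (0.0846 to 0.129). The survival gene Bcl2 averaged 10.45 ± 0.08 in WT and 10.02 ± 0.09 in KI Tregs without overlap and did not pass (adjusted p = 0.0611), and neither did Id3 (-0.46), which restrains E proteins.

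The fall of Tgfbr3 led to a look at other TGF-beta receptor and Smad genes, chosen after the values were seen. Of 10 tested 1 rose and 2 fell, beside 1.99% and 0.848% of all genes. Tgfbr2, the receptor chain that binds TGF-beta first, read 10.69, 10.58, 10.66 and 10.76 on the WT arrays and 10.16, 10.21, 10.18 and 10.36 on the KI arrays. It fell 1.36-fold without overlap (-0.45, SE 0.0661, adjusted p = 0.000852, run value -0.40), and with the 3 runs as a block the difference was -0.29 (adjusted p = 0.169). Smad3, a transcription factor that the receptor activates, rose by 0.35 (SE 0.0801, adjusted p = 0.0256, run value 0.35). Its call ended without WT Treg 1, 2 or 4 or KI Treg 1 or 2 (0.0594 to 0.0978). In a group of phosphodiesterase genes chosen in the same way, Pde7a fell by 0.48 on the log2 scale (SE 0.0862, adjusted p = 0.00524, run value -0.31), and by 0.30 with the block (adjusted p = 0.474). Pde2a, whose enzyme cyclic GMP activates, rose by 0.60 (SE 0.139, adjusted p = 0.0257, run value 0.66), a call that ended without WT Treg 1 or 4 or KI Treg 1 or 2 (0.0674 to 0.0978).

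Hif1a encodes the oxygen-regulated subunit of HIF-1, which raises glucose uptake and glycolysis and has been described as a Foxp3 partner. Of 21 tested HIF targets and oxygen-sensing genes 4 rose and 0 fell, beside 1.99% and 0.848% of all genes. Their median was 0.09, which was 0.01 without WT Treg 1, and their run median was 0.08. Of 15 glycolysis genes 5 rose and 0 fell, beside the same shares of all genes, with a median of 0.21 and a run median of 0.15. The lists share the glucose transporter genes Slc2a1 and Slc2a3, so 7 genes rose in all, Egln3, a marker of the comparison, among them. Hif1a read 10.90, 11.03, 10.90 and 10.86 on the WT arrays and 11.26, 11.17, 11.11 and 11.40 on the KI arrays. The KI array of the shared run was the highest. The rise was small, at 1.24-fold (0.31, SE 0.0621, adjusted p = 0.00949), with a run value of 0.55, and it passed with the 3 runs as a block (adjusted p = 0.0311).

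Slc2a3, the high-affinity glucose transporter GLUT3, read 10.72, 10.74, 10.72 and 10.55 on the WT arrays and 11.04, 11.01, 10.91 and 10.96 on the KI arrays. Slc2a1, the transporter GLUT1, read 7.88, 8.18, 8.09 and 8.18 on the WT arrays and 8.46, 8.45, 8.36 and 8.37 on the KI arrays. In both genes the KI arrays lay above all WT arrays by a narrow margin. Slc2a3 rose by 0.30 (SE 0.0630, adjusted p = 0.0144, run value 0.41), passing with the 3 runs as a block too (0.0308), and Slc2a1 by 0.32 (SE 0.0781, adjusted p = 0.0313, run value 0.19). Among enzymes, the aldolase gene Aldoc rose by 0.86 (SE 0.200, adjusted p = 0.0267), the triosephosphate isomerase gene Tpi1 by 0.42 (SE 0.0957, adjusted p = 0.0234) and the pyruvate kinase gene Pkm by 0.48 (SE 0.119, adjusted p = 0.0358). The run values were 0.39, 0.42 and 0.15. With the block the differences of Slc2a1 (0.16, adjusted p = 0.857) and Pkm (0.27, adjusted p = 0.602) were smaller.

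Most of these calls depended on single arrays. That of Slc2a3 ended without KI Treg 1 or WT Treg 4 (adjusted p 0.0600 to 0.0698), that of Slc2a1 without WT Treg 1 or 3 or KI Treg 1 or 2 (0.0815 to 0.119), and that of Aldoc without WT Treg 1 to 3 or KI Treg 1 or 2 (0.0518 to 0.100). Tpi1 lost its call without any single array other than WT Treg 2 or KI Treg 4 (0.0636 to 0.0846), and Pkm without any other than KI Treg 4 (0.0691 to 0.142). The lactate dehydrogenase gene Ldha (-0.01) and the hexokinase gene Hk2 (0.49, adjusted p = 0.126) did not pass.

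The promoters of Egln3, Hif1a and Slc2a1 are shown because these members of the oxygen-sensing list rose together, with each match to the core of the HIF binding site in capitals. The core was searched as ACGTG or GCGTG on both strands, so that CACGT and CACGC also count, and overlapping matches are joined. The sequences are from RefSeq on GRCm38.p6, and run from 250 bases before the start of the gene to 30 after it. Egln3 is at chr12:54203845-54204124 on the minus strand, Hif1a at chr12:73907617-73907896 on the plus strand and Slc2a1 at chr4:119108495-119108774 on the plus strand.
Egln3: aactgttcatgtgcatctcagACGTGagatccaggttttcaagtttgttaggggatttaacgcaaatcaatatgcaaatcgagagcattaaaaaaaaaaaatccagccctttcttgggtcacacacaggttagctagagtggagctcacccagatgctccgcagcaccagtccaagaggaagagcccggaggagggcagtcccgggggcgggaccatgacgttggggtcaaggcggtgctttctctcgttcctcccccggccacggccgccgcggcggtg
Hif1a: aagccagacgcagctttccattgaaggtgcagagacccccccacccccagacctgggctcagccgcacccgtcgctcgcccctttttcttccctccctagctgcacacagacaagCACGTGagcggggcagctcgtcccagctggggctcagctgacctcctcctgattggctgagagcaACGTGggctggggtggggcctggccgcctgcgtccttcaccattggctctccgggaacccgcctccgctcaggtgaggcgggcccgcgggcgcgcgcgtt
Slc2a1: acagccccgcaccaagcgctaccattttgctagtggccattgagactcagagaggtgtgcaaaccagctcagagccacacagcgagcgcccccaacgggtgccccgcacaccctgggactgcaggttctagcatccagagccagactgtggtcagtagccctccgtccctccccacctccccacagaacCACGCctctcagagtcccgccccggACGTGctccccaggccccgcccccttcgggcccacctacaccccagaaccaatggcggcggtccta
The core occurs in 43.8% of all 32851 RefSeq promoters of 300 bases. Of the 7 genes that rose, 6 had a promoter entry and 5 of these held the core in at least 1 of their promoters, Tpi1 being the exception. So short a motif is common, and a match is a description of these letters only.

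The rise of Atp6v0d2 was not shared by the rest of the proton pump. Of 14 tested pump genes it was the only one to pass, beside 2.84% of all genes, and the median was 0.09. The next lowest p belonged to Atp6v1d (0.24, adjusted p = 0.109). Among 17 lysosome genes 2 rose and 0 fell, beside 1.99% and 0.848% of all genes, with a median of 0.15 and a run median of -0.07. Ctsl, the gene of the protease cathepsin L, read 6.62, 6.77, 6.89 and 7.02 on the WT arrays and 8.19, 7.77, 7.24 and 7.87 on the KI arrays. Lgmn, the gene of the asparagine endopeptidase legumain, read 6.25, 5.85, 6.69 and 6.63 on the WT arrays and 7.43, 7.63, 7.17 and 7.22 on the KI arrays. Neither overlapped. Ctsl rose 1.93-fold (0.94, SE 0.166, adjusted p = 0.00412, run value 0.86) and Lgmn 2.01-fold (1.01, SE 0.181, adjusted p = 0.00502, run value 0.59).

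Other genes of lysosomal proteins were found among the rises after the values were seen. Gm2a, the activator protein for ganglioside breakdown, rose by 0.44 (SE 0.0628, adjusted p = 0.000729, run value 0.32). The beta-galactosidase gene Glb1 rose by 0.74 (adjusted p = 0.0133), the sialic acid exporter gene Slc17a5 by 0.35 (adjusted p = 0.0281) and the carboxypeptidase gene Scpep1 by 0.29 (adjusted p = 0.0358). Their run values were 0.75, 0.33 and 0.28. Glb1 lost its call without WT Treg 1 or 4 or KI Treg 1 or 2 (adjusted p 0.0503 to 0.0663). Slc17a5 and Scpep1 each lost theirs without 6 of the 8 arrays, with adjusted p up to 0.0910 and 0.129. Those 6 were all but KI Treg 3 and 4 for Slc17a5, and all but WT Treg 4 and KI Treg 2 for Scpep1.

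Genes of dividing cells were read as a list of mitosis genes and a list of DNA replication genes. Outside these lists E2f8, Ncapg, Cep55, Stmn1 and Pclaf also rose, as given below. Of 17 tested mitosis genes 2 rose, 0 fell and 15 did not pass, beside 1.99% of all genes for rises, while 16 had a positive difference, and the median was 0.84 beside 0.04 for all genes, with a run median of 0.61. Ccnb2, a cyclin that drives entry into mitosis, read 5.10, 6.86, 5.76 and 4.78 on the WT arrays and 7.64, 7.91, 7.76 and 7.42 on the KI arrays. WT Treg 2 was the highest WT array and still lay below every KI array. Ccnb2 rose 4.16-fold (2.06, SE 0.346, adjusted p = 0.00273), with a run value of 2.64, and did not pass with the 3 runs as a block (2.38, adjusted p = 0.0542).

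Cdc20, which activates the ubiquitin ligase that ends mitosis, read 5.96, 6.16, 5.97 and 5.63 on the WT arrays and 6.68, 7.11, 6.85 and 6.36 on the KI arrays. It rose 1.77-fold without overlap (0.82, SE 0.161, adjusted p = 0.00853, run value 0.73). The proliferation marker Mki67 averaged 7.76 ± 0.51 in WT and 8.79 ± 0.32 in KI Tregs, a difference of 1.03 that did not pass (adjusted p = 0.0580). Birc5, which encodes survivin, differed by 1.5 and did not pass either (adjusted p = 0.0506). Without KI Treg 4, 8 of the 17 genes passed, all higher, beside 7.02% of all genes. Without the arrays numbered 24 to 27, 3 passed, beside 5.18%, and with the 3 runs as a block none did.

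With the 3 runs as a block none of 23 DNA replication genes passed. Without the block 2 rose and 0 fell, beside 1.99% and 0.848% of all genes, with a median of 0.19. These were Cdc6 (1.08, SE 0.194, adjusted p = 0.00502, run value 0.92), which loads the replicative helicase, and the maintenance methylation gene Uhrf1 (0.73, SE 0.187, adjusted p = 0.0432, run value 0.35). Cdc6 lay near background in WT Tregs (4.48 ± 0.13). Uhrf1 lost its call without WT Treg 1, 3 or 4 or KI Treg 2 or 3 (adjusted p 0.104 to 0.153). E2f8, a transcription factor of the late cell cycle, rose by 1.38 (SE 0.215, adjusted p = 0.00142, run value 1.06) from a WT mean near background (4.20). The condensin gene Ncapg rose by 1.11 (SE 0.259, adjusted p = 0.0279, run value 1.18), a call that ended without WT Treg 1, 3 or 4 or KI Treg 1 to 3 (0.0524 to 0.108). Of 9 cell cycle inhibitors, Btg1 alone passed, beside 2.84% of all genes, with a fall of 1.13-fold (-0.18, SE 0.0381, adjusted p = 0.0136, run value -0.12). Its call ended without WT Treg 1 (0.0510) or KI Treg 2 (0.0519). A second probe set of Btg1 went the other way, by 0.12, and did not pass where every probe set was tested (adjusted p = 0.754).

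The promoters of Ccnb2 and Cdc20 are shown because they are the mitosis genes that passed and because mitotic genes are known to be controlled through the CHR and CCAAT elements. CHR was searched as TTTGAA and CCAAT as itself, each on both strands, and matches are in capitals. The window is 250 bases before the start to 30 after it on GRCm38.p6, from RefSeq. Ccnb2 is at chr9:70421525-70421804 and Cdc20 at chr4:118437314-118437593, both on the minus strand.
Ccnb2: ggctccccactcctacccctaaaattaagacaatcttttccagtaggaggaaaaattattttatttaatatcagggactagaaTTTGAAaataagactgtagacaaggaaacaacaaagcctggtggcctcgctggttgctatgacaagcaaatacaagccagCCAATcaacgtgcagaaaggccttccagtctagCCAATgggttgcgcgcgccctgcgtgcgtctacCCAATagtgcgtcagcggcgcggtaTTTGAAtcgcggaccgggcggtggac
Cdc20: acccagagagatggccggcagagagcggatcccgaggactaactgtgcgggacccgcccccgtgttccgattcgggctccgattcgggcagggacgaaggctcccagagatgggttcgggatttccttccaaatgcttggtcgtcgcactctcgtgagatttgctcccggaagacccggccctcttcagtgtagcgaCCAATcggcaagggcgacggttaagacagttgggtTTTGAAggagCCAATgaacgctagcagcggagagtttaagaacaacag
Ccnb2 holds 2 CHR and 3 CCAAT matches and Cdc20 holds 1 and 2. Of all 32851 promoters of 300 bases 17.9% hold CHR, 37.4% CCAAT and 6.95% both. The promoters of Cdc6 and Uhrf1 hold no CHR match.

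The largest difference of all was a fall in 3830406C13Rik, a transcript without an established role. It read 6.21, 6.42, 6.45 and 6.53 on the WT arrays and 2.58, 2.58, 2.70 and 2.49 on the KI arrays. Every KI array lay at background, so the fall of 14.1-fold (-3.82, SE 0.128, adjusted p = 1.51e-12) is a lower estimate, and the run value was -4.04. Pon3 and Pon2, adjacent genes that encode paraoxonases, enzymes that hydrolyse lactones, both fell. Pon3 read 6.20, 6.41, 6.51 and 6.49 on the WT arrays and 4.86, 5.26, 4.74 and 4.64 on the KI arrays, and Pon2 read 10.03, 10.03, 10.11 and 10.28 against 9.15, 9.17, 9.17 and 9.43. Pon3 fell by 1.53 on the log2 scale (SE 0.146, adjusted p = 9.81e-06, run value -1.85) and Pon2 by 0.88 (SE 0.124, adjusted p = 0.000639, run value -0.85). Neither gene overlapped, and all 3 falls passed with the 3 runs as a block.

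Tested genes next to Foxp3 on the X chromosome were also lower in KI than in WT Tregs. WT mice carried the transgene, and its effect and that of the knock-in cannot be told apart for these genes either. Ccdc22, whose product takes part in endosomal recycling of membrane proteins, read 9.42, 9.38, 9.29 and 9.42 on the WT arrays and 8.13, 8.57, 8.21 and 8.08 on the KI arrays. Ppp1r3f, a regulatory subunit of protein phosphatase 1, read 8.00, 8.07, 8.14 and 7.86 on the WT arrays and 7.45, 7.62, 7.35 and 7.07 on the KI arrays. Both were lower on every KI array. Ccdc22 fell 2.19-fold (-1.13, SE 0.112, adjusted p = 1.28e-05, run value -1.34) and Ppp1r3f 1.57-fold (-0.65, SE 0.120, adjusted p = 0.00581, run value -0.79). Ccdc22 passed with the 3 runs as a block (adjusted p = 0.00428). In Tconv Ccdc22 differed by -0.89 (limma adjusted p = 0.000620) and Ppp1r3f by -0.51, which did not pass (0.190).

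Flicr, a long non-coding RNA gene beside Foxp3 and chosen after its values were seen, fell by 0.62 on the log2 scale (SE 0.162, adjusted p = 0.0460, run value -0.54). Its call ended without any single array other than WT Treg 4 or KI Treg 2 (adjusted p 0.0644 to 0.181), and its arrays overlapped. Flicr and Ccdc22 are the tested genes on either side of Foxp3, and Ppp1r3f is the one beyond Flicr. The next tested genes outward, Clcn5 (0.03) and Plp2 (0.06), did not pass, and of 20 tested Foxp3 neighbours fixed as a list the 2 above were the ones that passed. On the whole X chromosome 5 of 255 tested genes (1.96%) passed.

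Falls elsewhere were in genes of varied function. Rnf144a, a ubiquitin ligase gene, fell by 1.18 on the log2 scale (SE 0.194, adjusted p = 0.00244, run value -1.30), and Arhgap5 by 1.14 (SE 0.205, adjusted p = 0.00502, run value -0.94). Tnfsf8, the gene of CD30 ligand, fell by 0.99 (SE 0.180, adjusted p = 0.00526, run value -0.78), and Sema4a, a membrane semaphorin, by 0.76 (SE 0.134, adjusted p = 0.00463, run value -1.10). Sema4a passed with the 3 runs as a block (adjusted p = 0.0499). The neighbouring aldo-keto reductase genes Akr1c13 and Akr1c12 fell by 0.93 (adjusted p = 0.000349, run value -1.03) and 0.77 (adjusted p = 0.00222, run value -0.90). Their transcripts are alike enough that probes may not tell them apart. Pdzk1ip1 (-1.02), Rnf32 (-0.83) and Lxn (-0.82), which encodes a carboxypeptidase inhibitor, were the remaining falls among the 15 largest without overlap. Their run values were -1.08, -1.40 and -0.63. Rnf32 lay near background in both WT (4.43) and KI (3.59) Tregs and was tested because of its Tconv level (6.53 in WT), so its difference compares background levels. KI Tregs lay near background for Pdzk1ip1 (4.77), and the call of Pdzk1ip1 ended without WT Treg 2 (0.0505) or WT Treg 3 (0.0834).

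Several sialyltransferase genes, whose enzymes cap the sugar chains of glycoproteins and glycolipids with sialic acid, were among the falls. St6galnac2 read 7.70, 7.43, 7.32 and 8.05 on the WT arrays and 6.21, 6.79, 6.48 and 6.84 on the KI arrays. It fell 2.07-fold without overlap (-1.05, SE 0.195, adjusted p = 0.00630, run value -1.21). The rest of the family was added after the values were seen. Of 12 tested 4 fell and 0 rose, beside 0.848% of all genes for falls, and the median was 0.01. St6galnac2 passed with the 3 runs as a block (adjusted p = 0.0413). St8sia6 averaged 10.59 ± 0.07 in WT and 9.97 ± 0.12 in KI Tregs (adjusted p = 0.000153), St8sia4 10.77 ± 0.09 and 10.30 ± 0.16 (adjusted p = 0.00821), and St6galnac3 7.74 ± 0.37 and 6.94 ± 0.26 (adjusted p = 0.0308). The run values were -0.54, -0.41 and -0.48. A second probe set of St8sia4 differed by 0.03 and did not pass where every probe set was tested (adjusted p = 0.972). With the 3 runs as a block St6galnac3 differed by -0.43 (adjusted p = 0.679), and its call ended without WT Treg 1 to 3 or KI Treg 1 or 3 (0.0743 to 0.105).

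Among the 15 largest rises without overlap were also genes outside the lists. Nrn1, which encodes neuritin, a surface protein first known from neurons, read 8.82, 8.94, 8.72 and 8.90 on the WT arrays and 10.19, 10.07, 10.04 and 10.01 on the KI arrays. The arrays within each genotype lay close together, and the rise was 2.35-fold (1.23, SE 0.0811, adjusted p = 4.19e-08, run value 1.12). Chdh, the gene of choline dehydrogenase, rose 2.87-fold (1.52, SE 0.192, adjusted p = 0.000248, run value 1.45) from a WT mean near background (4.50), and Rapgef5, an activator of Ras-like GTPases, rose 2.86-fold (1.51, SE 0.198, adjusted p = 0.000321, run value 1.42). Nedd4, a ubiquitin ligase gene, rose 2.69-fold (1.43, SE 0.237, adjusted p = 0.00261, run value 1.00), also from near background (4.86), and by 0.84 with the 3 runs as a block (adjusted p = 0.482). Nrn1 (adjusted p = 0.000215), Chdh (0.0344) and Rapgef5 (0.0413) passed with that block.

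Nxpe4 rose by 1.24 (SE 0.165, adjusted p = 0.000349, run value 1.56), the membrane protein gene Emp1 by 1.23 (SE 0.232, adjusted p = 0.00678, run value 1.27) and Ntn1, which encodes the guidance factor netrin-1, by 1.12 (SE 0.177, adjusted p = 0.00164, run value 1.14). Ccr9, the receptor for the gut chemokine CCL25, read 7.87, 8.14, 7.55 and 7.83 on the WT arrays and 8.61, 8.70, 8.68 and 8.99 on the KI arrays. It rose 1.86-fold (0.90, SE 0.118, adjusted p = 0.000328, run value 1.15). Nxpe4 (adjusted p = 0.00208), Emp1 (0.0499) and Ccr9 (0.00199) passed with the 3 runs as a block. Ccr9 and Itgae were the 2 of 18 tested chemokine receptor and adhesion genes to pass, beside 2.84% of all genes, and Ccr2 (0.86, adjusted p = 0.0520) did not.

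In a list of partners of Foxp3 and chromatin regulators the median was -0.03 and the run median -0.07. Of 36 tested 2 rose and 0 fell, beside 1.99% and 0.848% of all genes. One was Hif1a, and the other was Hdac9, a class II histone deacetylase gene (0.95, SE 0.179, adjusted p = 0.00650, run value 0.61), whose WT mean lay near background (4.28). Hdac7, a relative described to bind Foxp3 (0.17, adjusted p = 0.560), and Ezh2, a Polycomb methyltransferase gene (0.27, adjusted p = 0.123), did not pass. No gene passed among 16 of IL-2 and common gamma chain signalling (median -0.02), 17 of survival (-0.03) and 17 of the interferon response (0.02). The same held for 8 helper cytokine and lineage genes (-0.07), 18 of amino acid transport and mTORC1 (0.04) and 20 of the unfolded protein response (0.13). As 2.84% of all genes passed, lists this short can hold none, and these counts are descriptions only.

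Over all genes 2.84% passed and 60.3% had a positive difference. Of 29 oxidative phosphorylation genes 27 had a positive difference and 1 passed, Cox5a (0.19, SE 0.0498, adjusted p = 0.0450, run value 0.17). Of 19 sterol and fatty acid synthesis genes 1 passed, Mvd (0.75, SE 0.181, adjusted p = 0.0330, run value 0.65). Each lost its call in leave-one-out fits, Cox5a without WT Treg 1, 3 or 4 or KI Treg 1 to 3 (0.0676 to 0.160) and Mvd without WT Treg 1, 3 or 4 or KI Treg 1 or 2 (0.0863 to 0.125).

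Whether the genotype difference was the same in Tconv was tested as the interaction, the difference in Tregs less that in Tconv. In Tconv 11 genes (0.135%) passed between KI and WT, and 64 genes (0.786%) passed the interaction. Of these 64, 50 (0.614% of all genes tested) also passed in Tregs. Only 3 genes (0.0369%) passed in both cell types, 3830406C13Rik (-3.64 in Tconv), Pon2 (-0.87) and Ccdc22 (-0.89), all lower in KI. Their interaction adjusted p was 0.919, 0.996 and 0.801, which does not show that the falls are equal. Over the 162 genes higher in KI Tregs the median difference in Tconv was -0.01, and over the 69 lower genes it was -0.08.

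Among the effector genes, Prdm1 differed by -0.31 in Tconv (interaction adjusted p = 0.00245), Icos by -0.37 (0.000463), Lgals1 by -0.33 (0.00245), Anxa2 by -0.67 (0.00245), Itgae by -0.72 (0.00355) and Gzmb by -0.53 (0.00507). None of these Tconv differences passed, and all ran opposite to Tregs, so that part of each interaction comes from Tconv. Atp6v0d2 (0.04 in Tconv, interaction adjusted p = 1.67e-05), Nfil3 (-0.01, 0.00505), Tubb2a (0.11, 0.00245) and Tgfbr2 (-0.00, 0.0302) differed little in Tconv. Tubb2a, a tubulin gene chosen after its values were seen, rose by 0.87 in Tregs (SE 0.0805, adjusted p = 7.58e-06, run value 0.73), also with the 3 runs as a block (0.00891). Irf4 (0.29 in Tconv, 0.778) and Batf (0.12, 0.401) did not pass the interaction.

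Besides these 3, the genes that passed in Tconv were all lower in KI Tconv, and they include genes that mark Tregs. Foxp3 was lower by 0.93 (adjusted p = 0.0104) at 4.63 in WT and 3.69 in KI Tconv, both near background, and Ikzf2 (-0.83) and Nrp1 (-0.77) were lower as well. The effector marker Klrg1 (-1.59), the calcium-binding protein gene S100a4 (-1.28), Ccr6 (-0.75), Eea1 (-0.78) and Tiam1 (-0.73) were the rest, and these 5 were named after their values were seen. The part of these Tconv differences in the interactions was not tested.

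**Figure D4:**
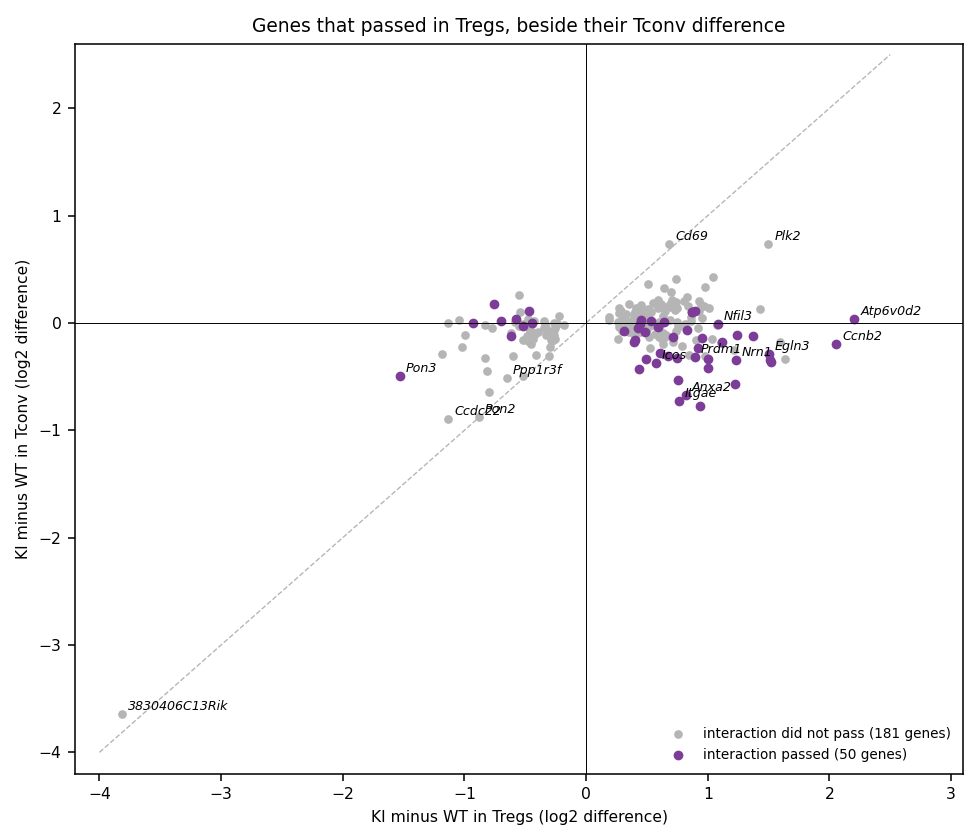
KI minus WT log2 difference in Tregs (horizontal) and in Tconv (vertical) for the 231 genes that passed in Tregs; purple marks the 50 that passed the interaction and the dashed line marks equal differences. 3830406C13Rik, Ccdc22 and Pon2 lie near the line, while Atp6v0d2 (2.21 and 0.04), Nfil3 and Nrn1 lie close to or below 0 in Tconv.

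How far the difference held within the one run with both genotypes was examined on genes called without it. On the 6 Treg arrays of the other runs, with the Tconv arrays of those runs, 422 genes (5.18%) passed. KI Tregs were higher in 280 of them and lower in 142. In the pair KI Treg 4 and WT Treg 4, which had no part in that call, 208 of the 280 were higher and 117 of the 142 lower, 77.0% in all, while over all genes 52.7% had the same sign. By direction these were 74.3% of the 280, beside 38.7% of all genes higher in the pair, and 82.4% of the 142, beside 61.2% lower. The differences were smaller in the pair, with a median of 0.20 against 0.55 for the higher genes and -0.20 against -0.47 for the lower. The pair is 1 array of each genotype, so this has no replicate check.

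The genes differed in this respect. Atp6v0d2 (2.25 on the other arrays, 2.08 in the pair), Egln3 (1.33 and 2.03), Nfil3 (1.01 and 1.33), Prdm1 (0.89 and 0.91), Ccnb2 (1.86 and 2.64), Pon3 (-1.42 and -1.85) and Ccdc22 (-1.06 and -1.34) were as large or nearly as large in the pair. Fosb, Tnfaip3 and Cd69, genes switched on early after T cell receptor signals, were not.

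**Figure D5:**
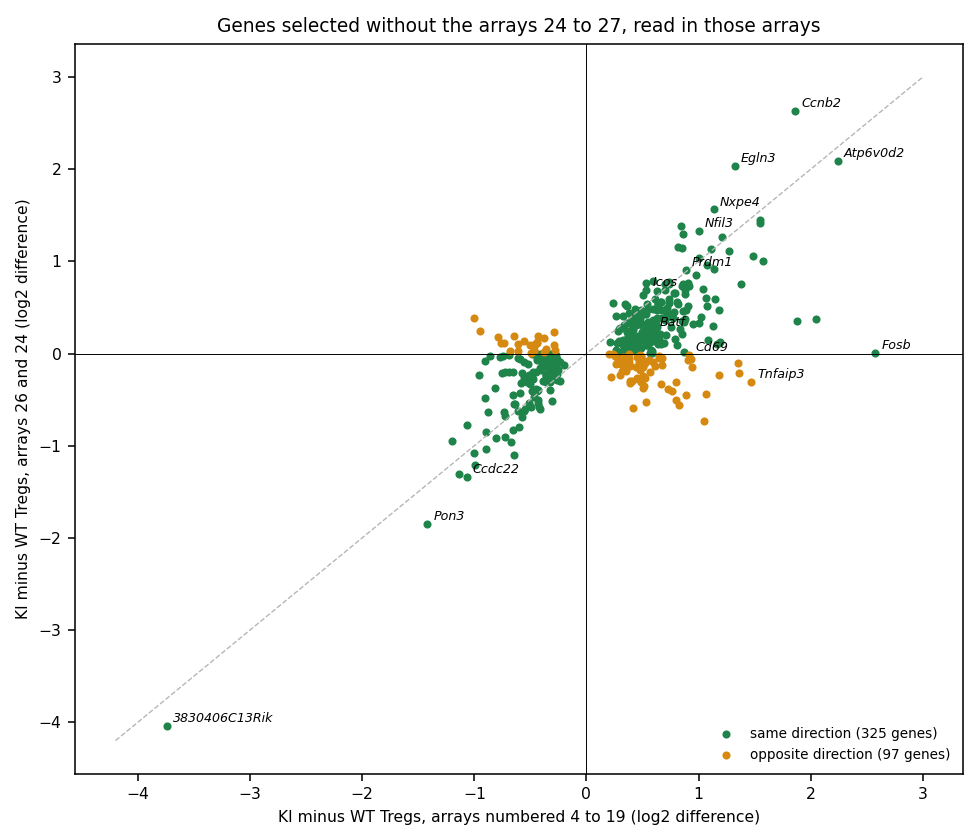
KI minus WT Treg log2 difference on the arrays numbered 4 to 19 (horizontal) and in the pair of arrays numbered 26 and 24 (vertical) for the 422 genes that passed without that pair. Green points (325) have the same direction in both, orange points (97) the opposite; Atp6v0d2, Egln3, Nfil3 and Ccnb2 lie near or above the line of equality, while Fosb lies at 0.01 in the pair.

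These immediate response genes were high on KI Tregs 1 to 3 and not on KI Treg 4. Fosb, a subunit of the AP-1 transcription factor, read 3.56, 3.61, 4.14 and 3.20 on the WT arrays and 6.53, 6.61, 5.90 and 3.21 on the KI arrays. Tnfaip3, the NF-kappa B inhibitor A20, read 9.48, 9.70, 9.70 and 10.06 on the WT arrays and 11.21, 11.16, 10.92 and 9.75 on the KI arrays. For both genes KI Treg 4 lay within or beside the range of the WT arrays. The adjusted p was 0.0995 for Fosb and 0.108 for Tnfaip3, and without KI Treg 4 it was 0.00199 and 0.0122.

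Of 23 tested members of the immediate response list 1 passed, beside 2.84% of all genes. It was the activation marker Cd69 (0.68, SE 0.174, adjusted p = 0.0405), whose run value was -0.02 and whose difference with the 3 runs as a block was -0.071. The call of Cd69 ended without WT Treg 1 to 3 or KI Treg 1 to 3 (0.0658 to 0.145). The list median was 0.30 in Tregs and 0.34 in Tconv, and -0.06 in the pair of the shared run. Its summed level ran from 211 to 215 on WT and from 207 to 229 on KI Treg arrays. The part of this response in the other differences was not tested.

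Heat shock genes moved between single arrays. Of 8 tested none passed, beside 2.84% of all genes, and the median was -0.35. Hspa1b, an inducible HSP70 gene, read 8.18, 8.36, 11.42 and 9.37 on the WT arrays and 6.40, 5.17, 8.94 and 7.33 on the KI arrays. Markers of other cell types were present at levels that overlapped between genotypes. The mean neutrophil marker level (10 genes) ran from 3.33 to 5.99 on WT and 4.10 to 6.13 on KI arrays, that of B cells (11 genes) from 4.10 to 5.61 and 4.16 to 5.24, and that of monocytes and macrophages (12 genes) from 4.25 to 5.86 and 3.91 to 5.86. The neutrophil gene S100a9 alone ran from 3.28 to 11.1 on WT arrays and from 6.04 to 10.2 on KI arrays. Within the shared run KI Treg 4 lay below WT Treg 4 for neutrophil (-0.85), B cell (-0.60) and monocyte (-0.64) markers and for S100a9 (-1.78), and the part of this in the run values was not tested. Their summed levels were 33.3 to 59.9 and 41.0 to 61.3 for neutrophils, 45.1 to 61.7 and 45.8 to 57.7 for B cells and 51.0 to 70.3 and 46.9 to 70.4 for monocytes.

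Of these markers, 6 of 11 for B cells, 8 of 12 for monocytes and macrophages and 7 of 10 for neutrophils exceeded 5 on at least 1 Treg array. In WT Tregs Cd79b averaged 7.41, Ms4a1 6.62, Lyz2 7.74 and S100a8 7.05. The others, among them Cd79a and Pax5 of B cells, Csf1r and Itgam of macrophages and Mpo and Elane of neutrophils, were not above 5 on any Treg array. Over 13 such scores, heat shock and immediate response genes included, the two-sided exact permutation p over 70 assignments ran from 0.0857 to 0.857 and the adjusted p from 0.743 to 0.857, where the smallest p possible is 0.0286. RNA quality, read as the difference between 3' and 5' Gapdh control probe sets, ran from 0.18 to 0.49 on WT and from 0.19 to 0.52 on KI Treg arrays.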

How the data were processed

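Affymetrix arrays whose probe sets hold perfect-match probes were hybridised with cRNA from cells lysed directly after sorting, with RNA taken by TRIZOL and the 3' IVT Express protocol, per the labels' protocols. The deposited values are log2 expression per probe set, made by the authors with RMA in Partek 6.5 per the submitters' processing notes, and its options are not given in the sources used here. RMA equalises the distributions of the arrays, so shifts common to most genes are removed.

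Here a gene was its probe set with the highest mean over 16 arrays, and a gene was tested if it exceeded 5 (log2) on 4 or more arrays, as 8139 did. A gene could thus be tested through the 4 arrays of 1 group alone. Of the 80 named genes that passed in Tregs, 22 had other probe sets bright enough to be tested, 30 in all. Of these 30, 28 differed in the direction of their gene and 15 passed where every probe set was tested. Of the 162 genes higher in KI Tregs, 21 had a WT Treg mean under 5. Among them, E2f8, Cdc6 and Hdac9 averaged 4.46, 4.52 and 3.96 over the 16 arrays. The model used limma 3.58.1 (R 4.3.3), with 4 group means over the 16 arrays and a variance trend, and two-sided p-values were adjusted over all genes. The analysis was tested on simulated data. Fold changes are 2 to the power of the log2 difference. The labels do not number replicates, so numbers follow accession order and pair nothing.

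Genes named are the 15 largest rises and the 15 largest falls that passed without overlap, from each list the up to 6 genes with the lowest p, a fixed set of 12 genes, and the 5 lowest interaction p-values. Members and lists were chosen with earlier results of these data known. The number of arrays limits the precision. Alternatives changed the filter, the probe set rule, the variance model, the normalization, the run block and the arrays included.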

Additional observations from a re-analysis of the deposited data

Results flagged for a closer look

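Within a group of 4 arrays, 1 array stood far from the other 3, by Dixon's test, in 12 of 224 groups of values of the named genes. This share is close to the 1 in 20 that chance gives, so the arrays listed next are a description only. Among KI Tregs, KI Treg 4 was the array that stood apart for Pon2 (highest, 9.43), Il18r1 (highest, 9.67), Jak2 (highest, 9.90), Entpd1 (lowest, 5.73), Tpi1 (lowest, 8.36) and Pim2 (lowest, 6.34), and KI Treg 2 for Rapgef5 (lowest, 7.44). Among WT Tregs, WT Treg 4 stood apart for Rnf144a (highest, 6.24), F13a1 (highest, 5.60) and Slc2a3 (lowest, 10.6), WT Treg 2 for Cep55 (highest, 7.08) and WT Treg 1 for Anxa2 (lowest, 9.09). Jak2, Pim2, F13a1 and Cep55 were named after their values were seen. Of these 4, Cep55 (1.59), F13a1 (1.63) and Jak2 (-0.26) passed between KI and WT Tregs. The run value was 1.70 for Cep55, and it was much smaller than the difference for F13a1 (0.38) and Jak2 (-0.07).

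By limma's interaction, the KI minus WT difference differed between Tregs and Tconv for 34 of the 112 named genes (adjusted p under 0.05). Over all 8139 genes tested, 64 (0.786%) passed the interaction. Some genes were named for a low interaction p, and Klrg1, S100a4 and Tubb2a after their values were seen. The count of 34 is therefore not independent of that selection and is a description only. The interaction, the difference in Tregs less that in Tconv, was largest for Ccnb2 (2.25), Atp6v0d2 (2.16), Klrg1 (1.97), Chdh (1.89), Rapgef5 (1.86), S100a4 (1.81), Emp1 (1.80), Egln3 (1.79) and Ccr2 (1.74). It was 1.58 for Nrn1, 1.49 for E2f8, Itgae and Anxa2, 1.35 for Nxpe4, 1.34 for Lgmn, 1.30 for Ntn1, 1.29 for Gzmb, 1.21 for Prdm1, 1.10 for Nfil3 and 1.07 for Lgals1. Smaller values were those of Icos (0.95), Tnfrsf1b (0.83), Nrp1 (0.82), Ccr9 (0.79), Tubb2a (0.76), Ikzf2 (0.75), Gm2a (0.45) and Hif1a (0.39). The negative ones were Pon3 (-1.04), Sema4a (-0.94), Akr1c13 (-0.93), Tgfbr3 (-0.61), St8sia6 (-0.50) and Tgfbr2 (-0.44). For Ikzf2, Nrp1, Klrg1 and S100a4 the difference passed in Tconv and not in Tregs.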

How the results depend on the processing

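Of 2220 values of named genes over 20 alternatives, 1841 kept their side of the threshold, 10 of them with a changed sign, 298 kept only the direction and lost the call, 80 gained one, and Cd69 turned to -0.071 with the 3 runs as a block. The number of genes that passed in Tregs (231, 162 higher and 69 lower) was 1715 (1202 and 513) with array weights, 29 (22 and 7) with the 3 runs as a block, 422 (280 and 142) without the arrays numbered 24 to 27, and 114 (91 and 23) with the further demand of 1.5-fold. Leaving out 1 Treg array gave 101 (without KI Treg 1) to 571 (without KI Treg 4), with 67 to 410 higher and 34 to 161 lower. The count also moved over 1.5 times without WT Treg 1 (106), WT Treg 3 (130), WT Treg 4 (139) and KI Treg 2 (126). The lower genes alone numbered 116 over every probe set, 133 after a further quantile normalization, 113 with arrays shifted to one median and 114 with 2 runs as a block. The interaction (64) gave 453 with array weights and 37 to 69 in the leave-one-out fits, the lowest without KI Treg 1, with 42 without WT Treg 1. The Tconv count (11) was 249 with array weights, 18 over every probe set, 5 with the 3 runs as a block and 105 without the arrays numbered 24 to 27. Of 468 list medians 445 moved by less than the spread between arrays. The cause of these shifts was not tested. No paired analysis was possible because the labels give the arrays of the groups no shared replicate numbers.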

Other observations

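The genes that passed included pairs of adjacent genes, chosen after their values were seen. Il17rb, which encodes a chain of the receptor for IL-25, rose by 0.85 beside Chdh (1.52), and Dnaaf4 rose by 0.83 beside Nedd4 (1.43). Their run values were smaller, at 0.14 for Il17rb and 0.33 for Dnaaf4. Il17rb averaged under 5 in both WT and KI Tregs, so its difference compares levels near background. Dnaaf4 averaged under 5 in WT Tregs. Adjacent genes also differed in opposite directions, as Arhgap5 (-1.14) and Egln3 (1.5) did. Both genes passed in 15 (0.185%) of 8107 pairs that follow each other among the genes tested. The 2.84% of single genes that passed is not a rate for pairs, and whether 15 pairs exceed chance was not tested. Stmn1, which encodes a regulator of microtubules in dividing cells, rose by 1.01 (limma adjusted p = 0.00946, run value 1.04). Pclaf, a partner of the replication clamp, rose by 1.04 (adjusted p = 0.0425, run value 1.07). Pclaf lost its call without WT Treg 1, 3 or 4 or KI Treg 1 to 3, with an adjusted p of 0.0611 to 0.140.

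Ifng, the gene of the cytokine interferon gamma, averaged 5.25 ± 0.39 in WT and 6.34 ± 0.56 in KI Tregs (SD, n = 4) and did not pass (limma adjusted p = 0.0809). Its arrays did not overlap between the genotypes. Gata1, an erythroid and megakaryocyte transcription factor that lies near Foxp3 on the X chromosome, differed by 0.63 (adjusted p = 0.0508) and by 0.84 without KI Treg 4 (0.00154), with a run value of 0.16. Pim2, a kinase gene, passed with the 3 runs as a block (-0.75, adjusted p = 0.0344) and not without it (-0.16, adjusted p = 0.609).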
